A study of Mus musculus with 32 samples.

Results

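The diet comparison described here covers 8 livers of female Nudt7-/- (KO) mice, 4 on a control diet (CD) and 4 on a Western diet (WD), out of 32 livers in the series. The other 24 livers are 4 each of KO males, WT females and WT males on either diet. Libraries were taken by the genotype, sex and diet in their titles, all 8 were kept, and they are named CD 1 to CD 4 and WD 1 to WD 4 after the number in the title. The WD supplied 41% of calories as fat and 0.2% cholesterol, the CD 10% and 0%, from 6 weeks of age until the mice were killed at 17 to 20 weeks. The strain label is C57BL/6J. The KO allele, which both diet groups carry in every tissue, lacks exons 3 and 4 and descends from 1 mosaic founder made by CRISPR/Cas9 in FVB zygotes and backcrossed to C57BL/6J. The labels describe both a harvest of fed mice in the morning and a harvest after a fast, and do not say which applied to each of these livers. Each library is 1 liver, the p-values measure the spread between mice labelled as separate samples, and the comparison asks which liver transcripts differ with the diet in females that lack NUDT7, a peroxisomal enzyme that hydrolyses CoA and acyl-CoAs.

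Several transcriptional systems of the liver are known to respond to such a diet. SREBP2 turns on the genes of cholesterol synthesis and uptake when sterols in the endoplasmic reticulum are low, and the nuclear receptor LXR turns on sterol export and SREBP1c when oxysterols are high. PPARα, another nuclear receptor, is activated by fatty acids and turns on their oxidation in mitochondria and peroxisomes. The liver clock is a loop in which ARNTL (BMAL1) with CLOCK or NPAS2 turns on the Per, Cry, Dbp, Tef and Nr1d genes, and the CRY, PER and NR1D proteins turn the loop down again. Much of lipid and xenobiotic metabolism follows that loop over the day.

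The 8 libraries held 12012257 to 15825078 estimated counts. Levels are given as CPM, counts relative to library totals scaled by TMM factors over all 32 libraries, and differences as log2 fold changes of WD over CD with the standard error (SE) of edgeR's quasi-likelihood fit and a Benjamini-Hochberg adjusted p over all genes tested. The hepatocyte markers were all measured, with a summed level of 110341 to 135483 CPM on the CD and 96284 to 117353 on the WD. In bulk liver fewer cells of a type and less RNA per cell cannot be told apart. The Nudt7 gene itself stood at 21.1, 37.7, 25.7 and 45.2 CPM on the CD and 63.5, 28.2, 29.3 and 25.6 on the WD, and the groups overlapped (log2 fold change 0.17, SE 0.37, adjusted p = 0.945 from edgeR). All of its counts were assigned to ENSMUST00000073521 and ENSMUST00000109109, and its other 3 transcripts were at 0 in all 8 libraries. These counts are over the whole transcripts and do not measure exons 3 and 4. Nudt7 ranged from 124 to 232 CPM in WT females on the CD and from 96.7 to 167 on the WD, above all 8 KO female libraries. In KO males it ranged from 60.8 to 249 on the CD and from 41.0 to 156 on the WD, which overlaps both the KO and the WT females. In WT males it ranged from 342 to 653 and from 372 to 599, above all 8 libraries labelled KO males.

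Transcripts of pancreatic acinar cells, which make digestive enzymes, were present in some of the CD libraries. Prss2, a trypsinogen gene, stood at 0.158, 6.26, 183 and 0 CPM in CD 1 to CD 4 and at 0.0641, 0.0603, 0 and 0.457 in WD 1 to WD 4. CD 3 was thus far above the other 7 libraries and CD 2 came next. The most abundant acinar gene, Amy2a4, a pancreatic amylase gene with near-identical copies between which reads cannot be assigned with certainty, reached 2759.6 CPM in CD 3 and 112 in CD 2, against at most 0.845 in the other 6 libraries.

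The same 2 libraries led in the summed level of all 36 acinar markers in the annotation. It was 15.4, 286, 6839 and 9.53 CPM in CD 1 to CD 4 and 8.84, 7.29, 7.64 and 27.9 in WD 1 to WD 4. The mean was 1787 ± 3370.2 (SD, n = 4) on the CD and 12.9 ± 10.0 on the WD, and the groups overlapped (exact two-sided permutation test p = 0.171, where the smallest p possible is 0.0286). A library was taken to hold acinar transcripts when its sum was over 10 times the median of all 32 libraries, 18.1 CPM. By that rule 5 libraries did, CD 2 and CD 3 among the KO females and 3 of WT females, and the other 27 stood between 4.77 and 158. Prss1 was at 0 in all 8 KO female libraries. Of the islet markers, 5 of 8, Ins2, Gcg, Ppy, Iapp and Pdx1, were at 0 in all 8 as well. CD 3 also had the highest levels of the contractile cell genes Des, Acta2 and Tagln, with Des at 73.0 CPM against 4.21 to 16.5 in the other 7 libraries. The diet effect was therefore fitted with all 8 libraries and again without CD 2 and CD 3, and both values are given below for most genes described whose call differs.

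**Figure D1:**
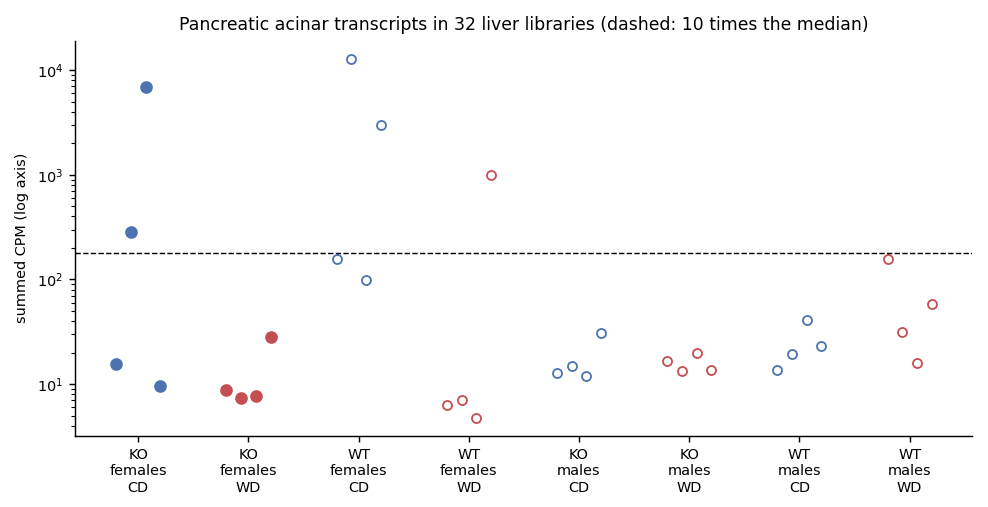
Summed level of the 36 acinar markers in the 32 libraries, in CPM on a log axis, by group, with the KO females as filled points. Each point is 1 library, blue on the CD and red on the WD, and the dashed line is 10 times the median; CD 3 and CD 2 of the KO females lie above it at 6839 and 286 CPM, and their 4 WD libraries lie between 7.29 and 27.9.

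Of 12840 genes tested, 16 passed the test at an adjusted p under 0.05, which is 0.125%, with 10 higher (0.0779%) and 6 lower (0.0467%) on the WD. At an unadjusted p under 0.05 there were 1268 genes (9.88%), 579 (4.51%) above and 689 (5.37%) below 0, and 729 (5.68%) had groups that did not overlap in CPM, 377 (2.94%) higher and 352 (2.74%) lower on the WD. Of all genes 49.4% had a log2 fold change above 0 and 50.6% one below 0, and the median was −0.0029. All 16 genes had groups that did not overlap, and all 16 kept their direction in the 19 other fits made. How many passed depended on single livers: without CD 4, WD 1 or WD 3 only Cyp2a22 was called, without WD 2 there were 4 genes, and without CD 3 or WD 4 there were 52 (0.411%) and 33. DESeq2 with length offsets, close to the method of the study, called 195 genes (1.52%), all 16 among them.

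Among the 10 genes that rose were a sterol exporter, a P450 and the P450 reductase, a fatty aldehyde dehydrogenase and an enzyme of ketone metabolism. Cyp2a22, a cytochrome P450 of the Cyp2a cluster on chromosome 7, had the smallest p and rose 2.50-fold between the means. Reads of the near-identical members of that cluster cannot be assigned with certainty. Cyp2a22 (ENSMUSG00000091867, chr7:26931631-26939384, minus strand) stood at 58.9, 59.3, 68.1 and 66.7 CPM on the CD and 139, 164, 181 and 148 on the WD (log2 fold change 1.31, SE 0.11, adjusted p = 0.000733). It was called in each of the 8 fits that left out 1 library and without CD 2 and CD 3 (adjusted p = 0.00458).

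Por, which encodes the reductase that feeds electrons to all microsomal P450s, also rose. It (ENSMUSG00000005514, chr5:135670033-135735326, plus strand) stood at 172, 127, 155 and 128 CPM on the CD and 282, 251, 267 and 215 on the WD (log2 fold change 0.79, SE 0.13, adjusted p = 0.0398). Inmt, which encodes indolethylamine N-methyltransferase (ENSMUSG00000003477, chr6:55170626-55175043, minus strand), rose from 293 ± 35.1 (SD, n = 4) to 495 ± 43.4 CPM (0.75, SE 0.11, adjusted p = 0.0293). The 4 WD livers were above the 4 CD livers for both genes.

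Abcg8, which encodes 1 partner of the ABCG5/ABCG8 dimer that exports sterols into bile, rose 2.20-fold. It (ENSMUSG00000024254, chr17:84676302-84700333, plus strand) stood at 67.6, 92.2, 68.5 and 79.1 CPM in CD 1 to CD 4 and at 158, 139, 157 and 224 in WD 1 to WD 4 (log2 fold change 1.13, SE 0.16, adjusted p = 0.0293). Abcg5, its partner, which lies beside it in the opposite orientation on chromosome 17, stood at 47.3, 88.5, 56.2 and 75.9 CPM and 167, 136, 152 and 246. WD 4 had the highest level of both and the groups did not overlap for either, but Abcg5 missed the threshold (1.38, SE 0.24, adjusted p = 0.0860; 4.58e-07 with DESeq2 and length offsets). The promoter of Abcg8 is shown because the gene is the called member of the sterol lists. It is the RefSeq window from 250 bases before to 50 bases after a transcript start on GRCm38.p6, chr17:84682871-84683170, plus strand, with the CCAAT letters of the NF-Y motif in capitals, at positions −175 and −114 from the start. Abcg8 has 2 such windows, and the shown window was picked by its number of matches.
Abcg8: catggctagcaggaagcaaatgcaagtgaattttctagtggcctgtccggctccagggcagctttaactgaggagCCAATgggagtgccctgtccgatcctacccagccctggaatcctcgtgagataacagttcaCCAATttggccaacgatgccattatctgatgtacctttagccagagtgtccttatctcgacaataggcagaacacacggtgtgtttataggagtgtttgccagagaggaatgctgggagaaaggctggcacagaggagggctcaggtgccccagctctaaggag

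Both enzymes of fatty aldehyde and ketone body metabolism among the called genes rose in all 4 WD livers. Aldh3a2, the fatty aldehyde dehydrogenase of omega-oxidation (ENSMUSG00000010025, chr11:61223417-61267464, minus strand), stood at 293, 249, 282 and 287 CPM on the CD and 469.6, 423, 409.7 and 436 on the WD (log2 fold change 0.64, SE 0.093, adjusted p = 0.0293). Bdh1, the mitochondrial enzyme that interconverts acetoacetate and β-hydroxybutyrate (ENSMUSG00000046598, chr16:31422280-31458901, plus strand), stood at 129, 141, 133 and 122 and 233, 206, 188 and 223 (0.68, SE 0.10, adjusted p = 0.0293). The groups did not overlap for either gene.

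The 4 remaining genes that rose were Saa4, the constitutive serum amyloid A of HDL, Flvcr2, a membrane transporter, Tifa, an adaptor of TRAF signaling, and Klhdc7a, a Kelch domain gene. Saa4 (ENSMUSG00000040017, chr7:46727998-46732603, minus strand) rose from 118 ± 10.6 to 201 ± 29.4 CPM (SD, n = 4; log2 fold change 0.76, adjusted p = 0.0353). Tifa (ENSMUSG00000046688, chr3:127789805-127832164, plus strand) rose from 14.2 ± 1.17 to 23.5 ± 2.48 (0.71, adjusted p = 0.0293). Klhdc7a (ENSMUSG00000078234, chr4:139960220-139968026, minus strand) rose from 18.7 ± 2.73 to 35.3 ± 4.65 (0.91, adjusted p = 0.0293). Flvcr2 (ENSMUSG00000034258, chr12:85746539-85813585, plus strand) had the lowest level of the 10, 5.07 ± 1.15 to 10.97 ± 1.74 CPM (1.11, adjusted p = 0.0398), and its CD 1 value of 6.79 stood apart from 4.39 to 4.69 in the other CD livers. Without CD 2 and CD 3 the calls of Abcg8, Bdh1, Cyp2a22, Inmt and Klhdc7a were made again, and those of Aldh3a2, Flvcr2, Por, Saa4 and Tifa were not (adjusted p = 0.0733 to 0.115).

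**Figure D2:**
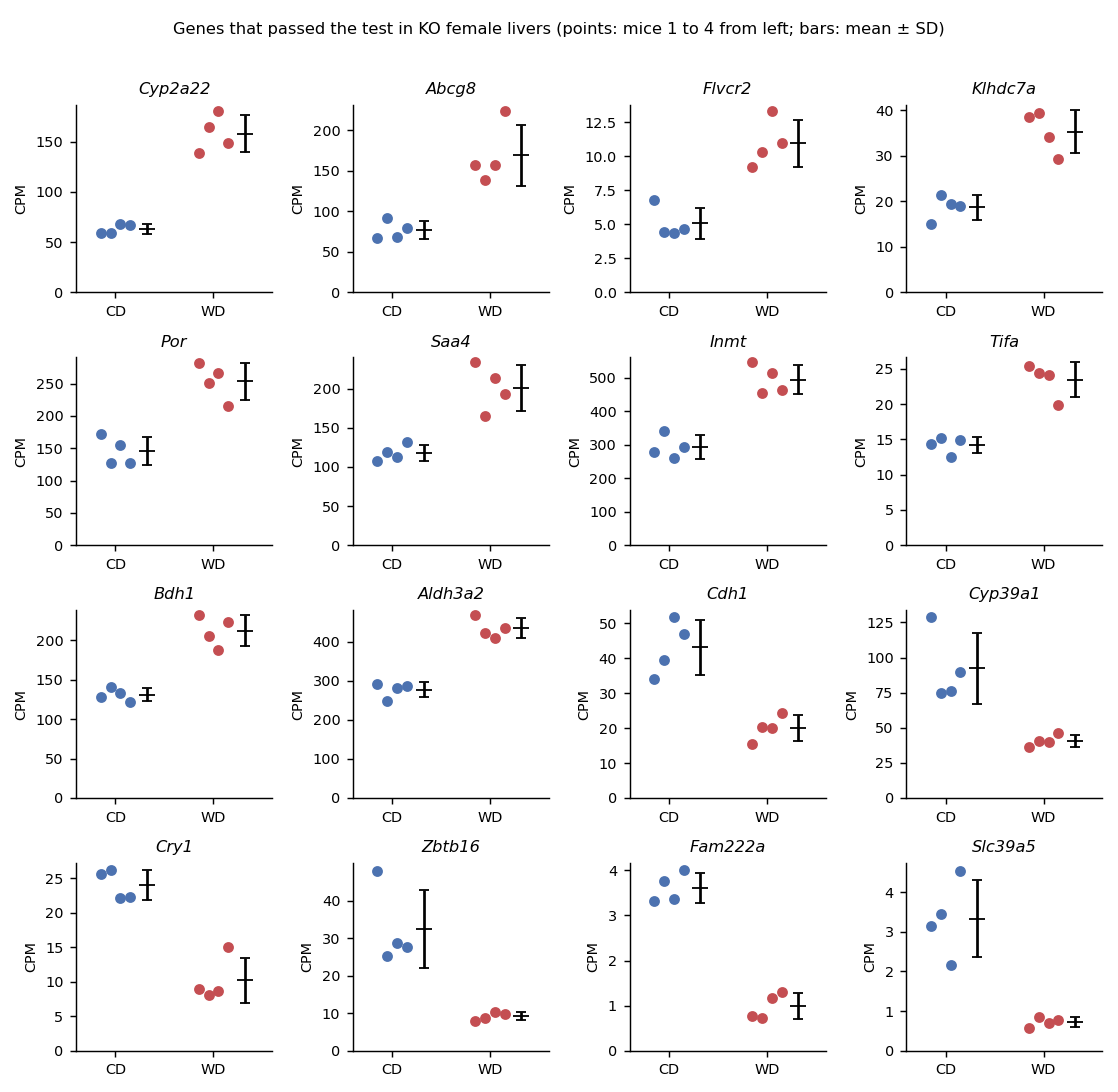
The 16 genes called in KO female livers, in CPM on linear axes from 0, on the CD (blue) and the WD (red). Each point is 1 liver, 1 to 4 from the left, beside the mean and SD of the group (n = 4); in all 16 panels the CD and WD points do not overlap, and Cyp2a22 rises from a mean of 63.2 to 158 CPM.

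The 6 genes that fell were 2 transcriptional repressors, a bile acid enzyme, a zinc transporter, a cell adhesion gene and Fam222a. Zbtb16, which encodes the repressor PLZF (ENSMUSG00000066687, chr9:48654297-48836222, minus strand), stood at 48.0, 25.2, 28.8 and 27.7 CPM on the CD and 7.94, 8.74, 10.2 and 9.78 on the WD (log2 fold change −1.83, SE 0.20, adjusted p = 0.0204). CD 1 was well above the other CD livers, and the call was made again without it. Cyp39a1, an oxysterol 7α-hydroxylase of bile acid synthesis (ENSMUSG00000023963, chr17:43667425-43751431, plus strand), stood at 129, 74.8, 76.2 and 89.4 and 36.5, 40.4, 39.6 and 46.4 CPM (−1.19, SE 0.17, adjusted p = 0.0293), and CD 1 was again the highest.

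Slc39a5, the zinc importer ZIP5, was low in all livers and had the largest change of the 16 genes. It (ENSMUSG00000039878, chr10:128395931-128401229, minus strand) stood at 3.16, 3.45, 2.16 and 4.53 CPM on the CD and 0.577, 0.844, 0.702 and 0.783 on the WD, a 4.58-fold difference of the means (−2.18, SE 0.28, adjusted p = 0.0233). Slc39a5 is also known from the pancreas, and its level was lowest of the CD livers in CD 3, the library richest in acinar transcripts, and highest in CD 4. Without CD 2 and CD 3 the change was −2.39 (adjusted p = 0.0104). The part of acinar cells in the level of Slc39a5 was not tested. Fam222a, a gene of little known function (ENSMUSG00000041930, chr5:114568016-114613220, plus strand), fell from 3.61 ± 0.327 to 0.992 ± 0.289 CPM (−1.87, SE 0.24, adjusted p = 0.0233). Cdh1, which encodes E-cadherin (ENSMUSG00000000303, chr8:106603351-106670246, plus strand), stood at 34.0, 39.5, 51.9 and 47.0 and 15.4, 20.4, 20.0 and 24.3 CPM (−1.11, SE 0.16, adjusted p = 0.0293), with CD 3 the highest. Without CD 2 and CD 3 the calls of Cyp39a1, Fam222a, Slc39a5 and Zbtb16 were made again, and those of Cdh1 and Cry1 were not (adjusted p = 0.0623 and 0.0733).

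Cry1, a core repressor of the circadian clock, was the sixth gene that fell, and it is described with the other clock genes. It (ENSMUSG00000020038, chr10:85131700-85185064, minus strand) stood at 25.7, 26.2, 22.1 and 22.2 CPM in CD 1 to CD 4 and at 8.97, 8.14, 8.66 and 15.1 in WD 1 to WD 4 (log2 fold change −1.24, SE 0.18, adjusted p = 0.0308). WD 4 was apart from the other 3 WD livers and nearest to the CD. Of the 20 clock genes listed, 18 were tested, 1 of them was called (0.125% of all genes), and 11 had an unadjusted p under 0.05 (9.88%), 6 above and 5 below 0. The list's median was 0.18, beside −0.0029 for all genes.

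The activators Npas2 and Arntl were lower, and the output genes Dbp and Tef higher, in each of the 4 WD livers than in any CD liver, although none of these 4 passed the adjusted threshold. Npas2 stood at 22.8, 19.9, 20.4 and 21.0 CPM on the CD and 5.13, 7.47, 6.39 and 13.3 on the WD (−1.39, SE 0.25, adjusted p = 0.0860). Arntl stood at 44.0, 36.5, 40.3 and 43.8 and 15.3, 18.9, 15.7 and 29.7 (−1.06, SE 0.20, adjusted p = 0.0880). WD 4 was the highest WD liver for both.

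Among the output genes Dbp, a PAR bZIP activator, had the largest difference of the list. It stood at 1.58, 1.45, 1.20 and 0.845 CPM on the CD and 35.3, 28.2, 18.8 and 5.02 on the WD, 17.2-fold between the means (4.09, SE 0.66, adjusted p = 0.0992; 1.06e-07 with DESeq2 and length offsets). WD 1 was the highest and WD 4 the lowest of the WD livers. Tef, a relative of Dbp, stood at 39.4, 35.2, 29.8 and 37.0 and 104, 84.7, 80.1 and 42.1 (1.13, SE 0.24, adjusted p = 0.165). Per3, a period gene, stood at 1.89, 2.65, 4.09 and 5.99 and 24.1, 18.5, 17.7 and 3.78 (2.11, adjusted p = 0.304), and here WD 4 lay within the CD range.

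For 15 of the 18 tested clock genes WD 4 was the WD liver that went least far from the CD mean in the direction of the fitted change, livers on the other side of the CD mean included. Nr1d1, the REV-ERBα gene, stood at 45.9, 43.0, 2.77 and 29.1 CPM in CD 1 to CD 4, with CD 3 far below the rest, and at 98.7, 95.9, 58.9 and 68.6 on the WD (1.42, adjusted p = 0.597). Clock transcripts move over the day and with feeding, and the hour and feeding state of each liver are not given in the sources used here. Their part in these differences was not tested.

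Dbp was read in the other groups as well. In WT females it ranged from 0.877 to 4.07 CPM on the CD and from 1.11 to 5.91 on the WD. In KO males it ranged from 1.15 to 16.01 and from 7.96 to 51.5, and in WT males from 0.567 to 1.31 and from 1.70 to 41.6. Only in the WT males, among these 3 groups, did the ranges of Dbp not overlap. From CD to WD the mean of Npas2 went from 25.2 to 16.1 CPM in WT females, 12.6 to 6.34 in KO males and 18.1 to 5.49 in WT males. In the same order Arntl went from 36.2 to 30.6, 33.0 to 17.7 and 39.0 to 21.4, and Tef from 32.8 to 43.6, 45.4 to 95.3 and 31.9 to 91.9. The median of the clock list was −0.13, 0.34 and 0.24 in these groups. The difference between the diet effects of KO and WT females was 3.30 for Dbp (SE 1.38, adjusted p = 1), −0.80 for Arntl (SE 0.48, adjusted p = 1) and −0.43 for Cry1 (SE 0.42, adjusted p = 1).

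Promoters of 3 clock genes are shown because they hold the letters that the loop's own factors are known to bind. The E-box, CACGTG, is the motif of ARNTL with CLOCK or NPAS2, and TAGGTCA, here called the NR1D element, that of the NR1D receptors. In windows of 300 bases of all RefSeq promoters, both strands read, 7.15% held the E-box, 2.61% the NR1D element and 2.32% the D-box of DBP and TEF, TTANGTAA. Counted by gene the shares were 8.09%, 2.97% and 2.72%. Of the 20 clock genes 17 had a window, and the E-box stood in those of 5 (Bhlhe41, Ciart, Cry1, Per1 and Tef), the NR1D element in 2 (Arntl and Nfil3) and the D-box in 1 (Per3). Below, Cry1 is chr10:85185005-85185304 (minus strand), Tef chr15:81802423-81802722 (plus) and Arntl chr7:113207261-113207560 (plus) of GRCm38.p6. Tef and Arntl each have 2 windows, and the shown window was picked by its number of matches. Capitals mark the E-box at −60 in Cry1 and −127 in Tef and the NR1D element at 30 after the start in Arntl. Cry1, lower on the WD, and Tef, higher in the WD livers, hold the same E-box letters, and a match of letters is not a measured site.
Cry1: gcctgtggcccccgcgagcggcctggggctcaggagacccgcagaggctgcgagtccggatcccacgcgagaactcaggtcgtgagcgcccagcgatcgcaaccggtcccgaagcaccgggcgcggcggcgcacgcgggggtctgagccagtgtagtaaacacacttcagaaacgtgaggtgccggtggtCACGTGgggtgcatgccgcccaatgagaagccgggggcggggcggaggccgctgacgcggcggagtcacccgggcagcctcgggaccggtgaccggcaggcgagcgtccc
Tef: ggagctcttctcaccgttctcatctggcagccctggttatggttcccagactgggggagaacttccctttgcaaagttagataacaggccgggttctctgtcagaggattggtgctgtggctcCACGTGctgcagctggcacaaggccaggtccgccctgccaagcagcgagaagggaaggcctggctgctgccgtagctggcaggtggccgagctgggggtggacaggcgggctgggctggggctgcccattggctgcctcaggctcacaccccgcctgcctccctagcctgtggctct
Arntl: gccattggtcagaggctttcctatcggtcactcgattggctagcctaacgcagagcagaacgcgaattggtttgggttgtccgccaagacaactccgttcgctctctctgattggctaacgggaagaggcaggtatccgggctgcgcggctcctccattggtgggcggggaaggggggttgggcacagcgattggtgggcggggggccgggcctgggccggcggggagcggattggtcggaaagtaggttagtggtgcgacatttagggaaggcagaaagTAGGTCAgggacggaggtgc

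**Figure D3:**
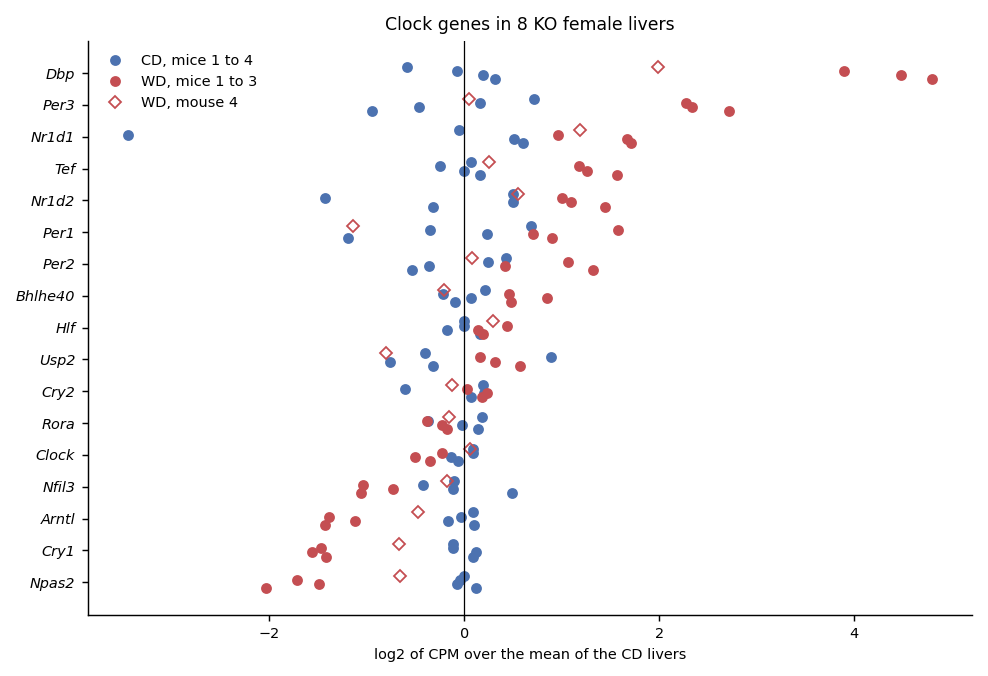
Clock genes, 17 of the 18 tested, in the 8 KO female livers, as log2 of CPM over the mean of the CD livers. Each point is 1 liver, blue on the CD and red on the WD, with WD 4 as an open diamond; WD 4 lies less far in the direction of the change than the other WD livers for most genes, as for Dbp at 5.02 CPM in WD 4 and 35.3 in WD 1, and the blue point far to the left is Nr1d1 in CD 3 at 2.77 CPM.

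All 20 genes of cholesterol synthesis had a log2 fold change below 0, and none passed the adjusted threshold (0 of 20 called). Of the 20, 13 had an unadjusted p under 0.05 and 8 had groups that did not overlap, beside 5.37% and 2.74% of all genes in that direction. In WT females all 20 were also below 0 and none was called (median −0.71). In WT males all 20 were called lower (median −2.12), beside 830 of all 12235 genes tested there. The diet effect in KO less WT females was below 0 for 19 of 20 (median −0.47), beside 7049 of all 13539 genes, and none was called. Cyp51, the lanosterol demethylase, stood at 87.8, 130.1, 147 and 129 CPM on the CD and 36.6, 69.8, 38.5 and 19.1 on the WD (−1.60, SE 0.38, adjusted p = 0.220). Dhcr7, which makes cholesterol from 7-dehydrocholesterol, stood at 78.2, 92.0, 96.1 and 98.7 and 38.1, 57.2, 43.9 and 19.8 (−1.21, SE 0.28, adjusted p = 0.192). Acat2, the cytosolic thiolase at the start of the pathway, stood at 93.1, 119, 107 and 122 and 51.8, 91.3, 48.0 and 38.2 (−0.95, SE 0.25, adjusted p = 0.242).

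The spread among the WD livers was large and went the same way throughout the pathway. WD 4 was the lowest WD liver for 20 of 20 genes and WD 2 the highest for 20 of 20, and CD 1 was the lowest CD liver for 18 of 20. Hsd17b7, which acts in removal of the C4 methyl groups, stood at 38.0, 52.8, 42.1 and 66.5 CPM on the CD and 34.5, 39.1, 30.8 and 27.4 on the WD, so that WD 2 lay above CD 1. Without CD 2 and CD 3 the list's median was −0.89. In all 8 libraries DESeq2 with length offsets called 4 of the 20 lower, beside 113 of all 12840 genes. The other SREBP2 targets, 6 of 6 below 0 (50.6% of all genes) with a median of −0.32, also had WD 2 as the highest and WD 4 as the lowest WD liver. The one with the smallest p of them, Srebf2, had a log2 fold change of −0.37 (adjusted p = 0.529).

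The promoter of Hmgcs1, the HMG-CoA synthase, is shown because it was the one window of the pathway with the sterol regulatory element. Of the 20 genes 15 had a RefSeq window, and 1 of the 15 held the sterol regulatory element TCACNCCAC (1.24% of all windows, 1.44% of all genes). The NF-Y letters CCAAT stood in 14 (37.4% of all windows, 41.1% of all genes). Hmgcs1 stood at 218, 433, 432 and 479 CPM on the CD and 207, 311, 183 and 137 on the WD (−0.91, adjusted p = 0.380). The window is chr13:119690101-119690400, plus strand, GRCm38.p6. Capitals mark the sterol regulatory element at −137 and the CCAAT letters, here on the other strand, at −237, −176, −45 and 10.
Hmgcs1: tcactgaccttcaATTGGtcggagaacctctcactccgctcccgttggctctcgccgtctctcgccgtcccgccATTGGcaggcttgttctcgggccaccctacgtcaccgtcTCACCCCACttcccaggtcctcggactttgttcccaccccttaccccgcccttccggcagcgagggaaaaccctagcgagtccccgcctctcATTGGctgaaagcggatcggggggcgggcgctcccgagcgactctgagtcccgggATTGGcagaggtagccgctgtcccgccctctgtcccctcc

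Of the LXR targets 12 of 16 were above 0 (49.4% of all genes), 7 of them with an unadjusted p under 0.05 (4.51%), and 1 was called, Abcg8 (median 0.12). Without CD 2 and CD 3 it was 9 of 16 above 0, and without CD 3 alone 10 of 16. Srebf1, which encodes SREBP1, stood at 114, 289, 138 and 247 CPM on the CD and 398, 394, 356 and 355 on the WD (0.92, SE 0.28, adjusted p = 0.305). Its WD livers were close together, whereas CD 1 and CD 3 stood well below CD 2 and CD 4. Abcg1, a cholesterol exporter of macrophages and other cells, stood at 9.79, 8.83, 12.2 and 7.68 and 11.8, 13.4, 16.4 and 12.5 (0.47, adjusted p = 0.332). The DR4 motif of LXR with RXR is the letters AGGTCA repeated after a gap of 4 bases. It was in 0.0152% of all windows and in none of those of the called genes. A window was available for 10 of the 10 genes called higher and 3 of the 6 called lower. The motif is too rare for its absence from so few windows to be informative.

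Genes of fatty acid synthesis, among which are known SREBP1 targets, were mostly below 0. Of 20 genes 14 were below 0 (50.6% of all genes) and none was called (median −0.14). Acacb, the mitochondrial acetyl-CoA carboxylase, stood at 278, 242, 235 and 318 CPM on the CD and 171, 196, 156 and 74.1 on the WD (−0.86, SE 0.27, adjusted p = 0.321). Acly, ATP citrate lyase, stood at 521, 761, 506 and 899.8 and 369.6, 475, 329 and 142 (−1.04, SE 0.36, adjusted p = 0.397). WD 4 was the lowest of all 8 livers for both. Of 19 tested genes of triacylglycerol synthesis and lipid droplets 15 were below 0 (50.6% of all genes). The one with the smallest p, Mgll, monoacylglycerol lipase, went the other way. It stood at 134, 133, 156 and 157 on the CD and 232, 201, 184 and 246 on the WD (0.56, SE 0.11, adjusted p = 0.0914).

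Genes of fatty acid oxidation were mostly above 0 by small amounts in the fit of all 8 livers. In the peroxisomal list 21 of 26 were above 0 and none was called (median 0.22). In the mitochondrial list 20 of 22 were above 0, with Bdh1 called (median 0.10). Of all genes 49.4% were above 0 and 0.125% were called. Acaa1b, a peroxisomal thiolase, stood at 533, 290.4, 377 and 423 CPM on the CD and 834, 843, 626 and 849 on the WD (0.95, SE 0.17, adjusted p = 0.0760). Without CD 2 and CD 3 the counts above 0 were 17 of 26 and 13 of 22, and the medians 0.057 and 0.026. Of all 12523 genes then tested 6496 were above 0, with a median of 0.011.

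The other PPARα targets went both ways. The fatty acid binding proteins Fabp1 and Fabp2 were higher in every WD liver, Fabp1 at 1342, 1474, 1226 and 1334 CPM on the CD and 2686, 2599, 1722 and 1949 on the WD (0.73, SE 0.15, adjusted p = 0.0914). Fabp2 stood at 40.5, 55.7, 43.0 and 57.3 and 88.8, 71.96, 71.97 and 98.4 (0.74, adjusted p = 0.0802). Pdk4, the kinase that holds back pyruvate dehydrogenase and is high in fasting, was lower in every WD liver, at 167, 46.3, 63.1 and 56.7 on the CD, with CD 1 far above the rest, and 12.1, 26.9, 14.2 and 35.7 on the WD (−1.91, SE 0.56, adjusted p = 0.328). None of the 15 passed the adjusted threshold, and 7 were above and 8 below 0. In the omega-oxidation list Aldh3a2 was called, whereas Cyp4a32 stood at 38.6, 15.01, 15.9 and 29.7 CPM on the CD and 14.0, 13.2, 14.7 and 14.8 on the WD (−0.81, adjusted p = 0.417; −1.27 and 0.00458 without CD 2 and CD 3).

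Bile acid synthesis held 1 called gene of 15, Cyp39a1, beside 0.125% of all genes. Cyp8b1, the sterol 12α-hydroxylase that sets the share of cholic acid, stood at 432, 270.2, 397 and 329 CPM on the CD and 123, 119.5, 173 and 232 on the WD (−1.15, SE 0.23, adjusted p = 0.124), with no overlap. Cyp7a1, the rate-limiting enzyme of the classic pathway, stood at 37.7, 68.4, 584 and 82.7 and 179.5, 136, 466 and 419. CD 3 had the highest level of all 8 livers and the other 3 CD livers the lowest, so that the fitted change was 0.62 (SE 0.99, adjusted p = 0.914) and 2.25 without CD 3 (adjusted p = 0.214). Cyp7b1, of the alternative pathway, stood at 11.6, 18.4, 15.8 and 13.7 and 25.5, 13.9, 22.8 and 27.3 (0.58, adjusted p = 0.388). Cyp27a1, Baat, Nr1h4 (FXR) and Nr0b2 (SHP) had log2 fold changes of −0.26 to 0.12 and adjusted p from 0.730 to 0.894.

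Of the cytochromes P450 of families 1 to 3, 37 were tested, 21 were above (49.4% of all genes) and 16 below 0, and Cyp2a22 was called (0.125%). The median was 0.046, 9 of 37 had a WD group wholly above the CD group (2.94% of all genes) and 0 of 37 one wholly below (2.74%). Cyp2g1, a P450 best known from olfactory tissue, stood at 0.631, 2.89, 1.14 and 1.54 CPM on the CD and 5.64, 5.55, 7.33 and 5.35 on the WD (1.94, SE 0.34, adjusted p = 0.0668; 0.0222 without CD 2 and CD 3). Cyp3a59 stood at 31.97, 28.9, 33.7 and 44.6 and 54.1, 67.8, 52.3 and 57.0 (0.72, SE 0.14, adjusted p = 0.0793). Cyp2b13, a female-predominant P450 with close paralogs, stood at 168, 108, 143 and 124 and 267, 197, 218 and 227 (0.73, SE 0.14, adjusted p = 0.0827). Of 36 tested genes of other xenobiotic metabolism, Por was called (0.125% of all genes) and 17 were above 0 (49.4%). Among these was Ephx1, the microsomal epoxide hydrolase, at 100.7, 109, 97.7 and 123 on the CD and 182, 136, 170.0 and 189 on the WD (0.64, SE 0.12, adjusted p = 0.0760). Ugt1a9, a glucuronosyltransferase that shares its last exons with the other Ugt1a genes, stood at 87.5, 49.9, 53.6 and 50.8 and 30.8, 14.2, 16.1 and 30.6 (−1.41, SE 0.32, adjusted p = 0.191).

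Growth hormone sets the level of many sex-dependent liver genes through STAT5B. Of 21 female-predominant genes 14 were above 0 (49.4% of all genes) and none was called (median 0.19). Of 17 tested male-predominant genes 10 were below 0 (50.6% of all genes) and none was called (median −0.28). Ntrk2, female-predominant, stood at 26.7, 39.7, 20.7 and 40.6 CPM on the CD and 71.95, 60.1, 86.2 and 51.7 on the WD (1.07, SE 0.24, adjusted p = 0.176), whereas Cyp17a1, also female-predominant, stood at 331, 193, 172 and 270.3 and 141, 138, 102 and 61.1 (−1.14, SE 0.30, adjusted p = 0.246). Neither overlapped between the diets. Stat5b itself stood at 100.3, 90.6, 85.7 and 100.1 on the CD and 75.3, 74.9, 76.9 and 77.0 on the WD (−0.32, SE 0.081, adjusted p = 0.189), and Igf1, the main product of the axis, at 374, 523, 489.7 and 405 and 707, 502, 615 and 695 (0.48, adjusted p = 0.251).

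Saa4 was the only called gene among secreted acute phase proteins and apolipoproteins. In the acute phase list 14 of 22 were above 0 (49.4% of all genes) and 1 was called (0.125%), with a median of 0.053. Hamp, the iron hormone hepcidin, stood at 330.3, 291, 274 and 281 CPM on the CD and 317, 823, 592 and 519 on the WD (0.93, SE 0.24, adjusted p = 0.227), where WD 1 lay within the CD range. Apoa4, an apolipoprotein of chylomicrons and HDL, stood at 1045, 748, 781 and 823 and 497, 467, 474 and 691 (−0.68, SE 0.15, adjusted p = 0.132) with no overlap. In the lists of PPARγ targets, the growth hormone axis, carboxylesterases, CoA synthesis and degradation, bile acid transport, ER chaperones and glucose metabolism none was called, and their medians ran from −0.16 to 0.25. Of the glucose metabolism list Pfkfb1, a bifunctional enzyme that controls glycolysis, had a change of −0.33 in all 8 livers (adjusted p = 0.579) and was called at −0.64 without CD 2 and CD 3 (adjusted p = 0.0494). In the CoA list, with a median of 0.033, Nudt8 and Nudt19, the other CoA hydrolases of mitochondria and peroxisomes, had changes of 0.075 (SE 0.14, adjusted p = 0.926) and −0.19 (SE 0.13, adjusted p = 0.672), and Fitm2, an ER enzyme of lipid droplet formation, 0.046 (SE 0.15, adjusted p = 0.964).

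**Figure D4:**
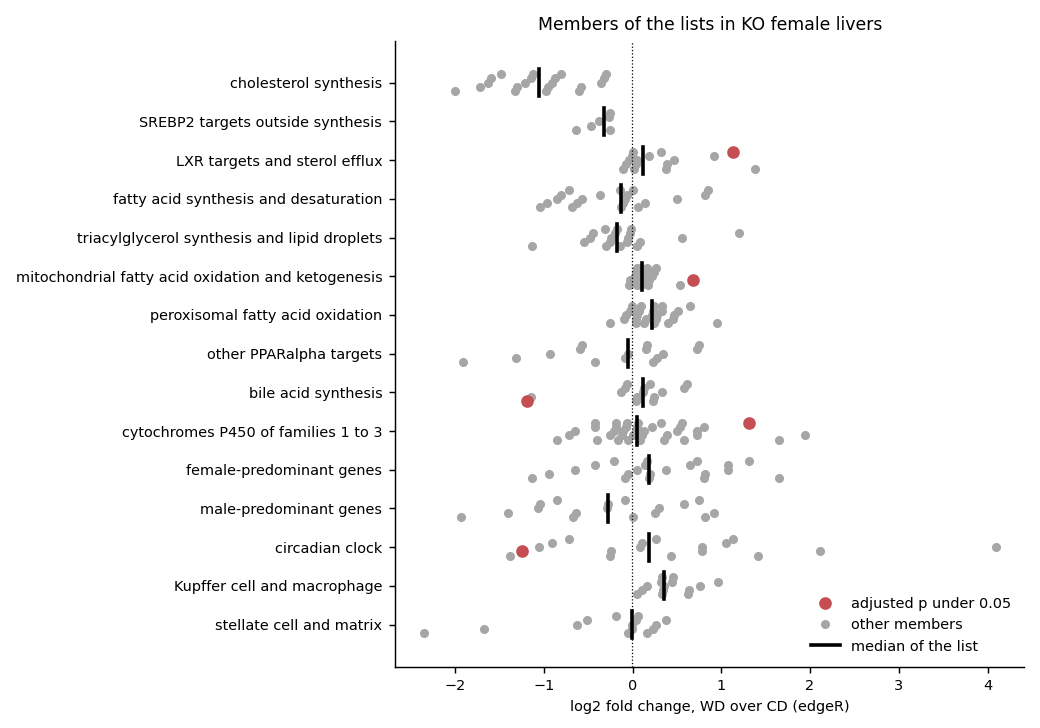
Log2 fold changes of WD over CD from edgeR in KO female livers for the tested members of 15 gene lists. Each point is 1 gene, red where the adjusted p was under 0.05. The vertical bars are list medians and the dotted line is the median of all genes tested, −0.0029. Cholesterol synthesis lies wholly below 0, with a median of −1.05.

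Markers of other cell types were set beside these lists. All 14 markers of Kupffer cells and macrophages were above 0 (49.4% of all genes), 6 of them with an unadjusted p under 0.05 (4.51%), and none was called (median 0.35). Their summed level was 524 to 777 CPM on the CD and 672 to 1049 on the WD. Cd5l, a secreted macrophage protein, stood at 60.5, 100.3, 79.5 and 106 CPM and 173, 179, 199 and 129 (0.96, SE 0.18, adjusted p = 0.0880). WD 4 was the lowest WD liver for 14 of 14 markers and CD 1 the lowest CD liver for 11. None of the lists of endothelial, stellate, biliary, lymphoid, neutrophil, adipocyte, erythroid and monocyte-derived cells had a called gene. Cfd, an adipocyte marker, stood at 0.789, 3.69, 9.44 and 0.615 CPM on the CD and 0.128, 0, 0.0780 and 9.001 on the WD. Fabp4, another, stood at 9.16, 14.1, 19.0 and 9.76 and 5.89, 7.53, 7.88 and 40.6, so that WD 4 was the highest of the WD livers for both. The part of these cells in the results above was not tested.

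Without the 2 acinar-rich CD libraries 39 of 12523 genes were called (0.311%), 13 higher and 26 lower, 9 of the 16 among them. Tead1, a transcription factor of the Hippo pathway, was then called at 1.57 (adjusted p = 0.0447), with 8.603, 11.9, 4.87 and 4.99 CPM in CD 1 to CD 4 and 16.8, 19.1, 18.9 and 25.8 on the WD. Loxl4, a lysyl oxidase of the matrix, was called at −1.75 (adjusted p = 0.0222), with 21.0, 15.5, 9.80 and 15.98 and 3.72, 5.67, 5.22 and 7.37. For these genes and for Slc13a2, a citrate transporter (−2.01, adjusted p = 0.0494), the CD 2 and CD 3 values also lay on the CD side of every WD value. Inhba, the βA chain of activin, was called at 0.97 (adjusted p = 0.0429). In all 8 libraries it stood at 18.5, 23.0, 64.8 and 15.4 CPM on the CD, with CD 3 above every WD liver, and at 26.7, 33.1, 37.7 and 35.5 on the WD (0.10, adjusted p = 0.976).

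The diet effect of the 16 genes was then set beside that in the other sex and genotype groups, each of which has its own CD and WD livers. In WT females 10 of 12737 genes were called (0.0785%), in KO males 323 of 12407 (2.6%) and in WT males 1678 of 12235 (13.7%). Of the 16 genes, 16 of 16 had the same direction in WT females, 9 with an unadjusted p under 0.05 (8.46% of all genes there). In KO males 15 of the 15 tested had the same direction, 10 with an unadjusted p under 0.05 (17.4%), and 5 were called. In WT males it was 15 of 15, 12 (29.5%) and 11 called. The 1 gene called in both genotypes of females was Cdh1 (−1.33 in WT females, adjusted p = 0.0484), and Cyp2a22 and Cry1 had changes of 1.66 and −0.82 there (adjusted p = 0.0584 and 0.0604).

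In the opposite direction, 308 of the 323 genes called in KO males were tested in KO females, where 237 had the same direction and 93 had it with an unadjusted p under 0.05 (30.2%, beside 9.88% of all genes in either direction). Of the 1662 tested calls of WT males 1235 had the same direction and 283 (17.0%) such a p. Cyp2a22 was low in males, at 0.494 to 1.48 CPM in KO males and 0.850 to 4.33 in WT males on the CD, against 58.9 to 68.1 in KO females. Slc39a5 was also low in males, at 0 to 0.328 CPM in KO males on the CD, and it was not tested there.

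**Figure D5:**
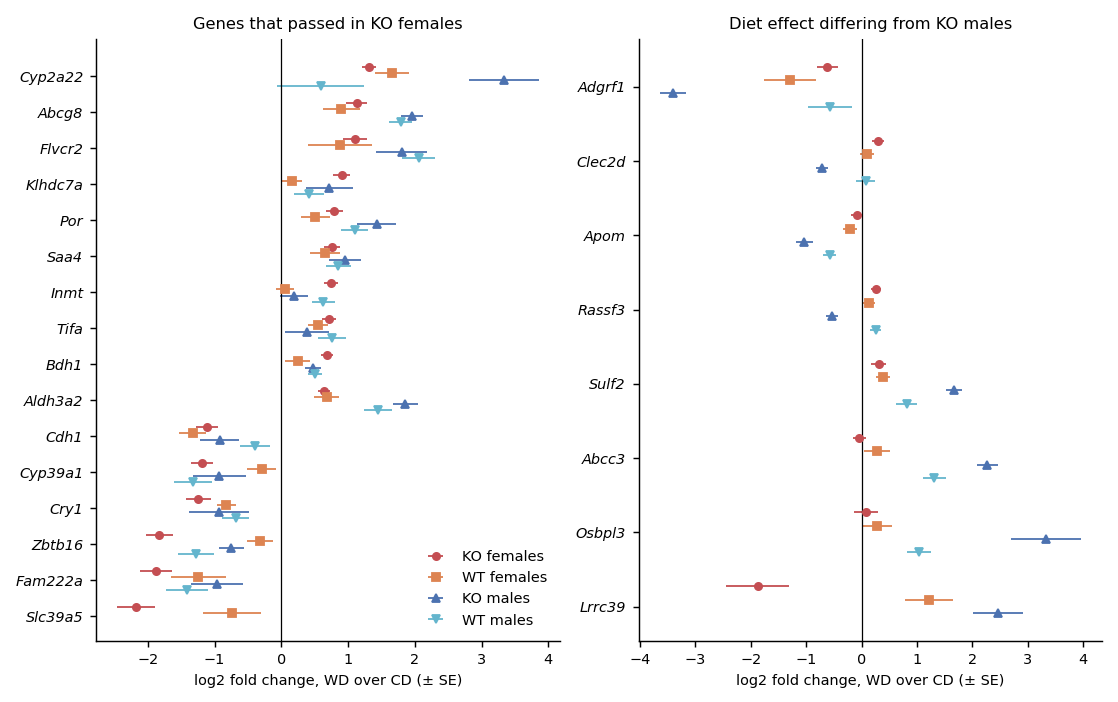
Log2 fold changes of WD over CD with bars of 1 SE in the 4 sex and genotype groups, each fitted on its own 8 livers. The left panel has the 16 genes called in KO females. The right panel has 8 genes in all, the 4 with the smallest p in each direction for the difference between KO females and KO males. On the left the values of a gene lie on the same side of 0 wherever it was tested, as for Abcg8 at 1.13 in KO females and 1.96 in KO males, and on the right Abcc3 lies at −0.041 and 2.27.

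The difference in diet effect between groups was tested in a model of all 32 libraries. For KO less WT females 0 of 13539 genes were called (0%), and 581 (4.29%) had an unadjusted p under 0.05, whereas DESeq2 called 5 on gene sums and 3 with length offsets. The smallest adjusted p was 0.436, and among the 16 genes it was that of Zbtb16. Zbtb16 stood at 12.5 to 20.9 CPM in WT females on the CD and 9.98 to 17.5 on the WD, whereas the KO CD livers stood at 25.2 to 48.0 (difference of the diet effects −1.52, SE 0.33). Inmt rose in KO females and had a change of 0.056 in WT females (difference 0.68, SE 0.25, unadjusted p = 0.0120), which did not pass the adjusted threshold (adjusted p = 1).

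For KO females less KO males 32 of 13539 genes were called (0.236%), 6 with a more positive and 26 with a more negative diet effect in females, and 1320 (9.75%) had an unadjusted p under 0.05. Abcc3, a basolateral bile acid and conjugate exporter, had the smallest p. It stood at 170.1, 144, 200.3 and 192 CPM in KO females on the CD and 152, 171, 189.6 and 179 on the WD, with no difference beyond the spread (−0.041, SE 0.12, adjusted p = 0.962). In KO males it stood at 46.9 to 72.7 on the CD and at 235 to 371 on the WD (difference −2.30, SE 0.30, adjusted p = 0.000343). The KO female livers of both diets lay between the KO male ranges.

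Aldh3a2 was the only one of the 16 called genes among the 32. It rose in both sexes, in KO females from 277 ± 19.7 to 435 ± 25.7 CPM and in KO males from 167 ± 37.3 to 599.6 ± 98.3 (difference −1.21, SE 0.26, adjusted p = 0.0324). Osbpl3, an oxysterol-binding protein, stood at 1.34 to 1.85 CPM in KO females on the CD and 1.70 to 1.99 on the WD, and at 1.16 to 1.73 and 4.19 to 31.2 in KO males (difference −3.25, adjusted p = 0.00406). Sulf2, a heparan sulfatase, had a change of 0.31 in KO females and 1.66 in KO males (difference −1.35, adjusted p = 0.00406).

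Among secreted proteins Apom, the carrier of sphingosine-1-phosphate in HDL, stood at 192 ± 14.1 and 183 ± 19.3 CPM in KO females, and at 183 ± 14.8 and 88.8 ± 19.7 in KO males (difference 0.96, SE 0.18, adjusted p = 0.0127). Hamp had a change of 0.93 in KO females and −1.17 in KO males (difference 2.11, SE 0.46, adjusted p = 0.0397), and Apoa4 −0.68 and 1.59 (difference −2.27, SE 0.42, adjusted p = 0.0127). Of the cholesterol synthesis genes, none was called for this difference. All 20 had a difference above 0 (median 1.22), beside 6633 of all 13539 genes. The median change was −2.32 in KO males, where 16 of 20 were called lower, beside 120 of all 12407 genes tested there. Without the 5 acinar-rich libraries 83 genes were called for the difference between the sexes in place of 32.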

How the data were processed

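RNA of 32 livers was made into mRNA libraries (KAPA mRNA HyperPrep) and sequenced by the authors as paired-end reads. The deposited tables hold, per GENCODE transcript of GRCm38, the estimated count of reads and the TPM that Salmon 1.3.0 gave the authors, who tested with DESeq2 1.28.1. Here estimated counts were summed to 35523 genes with the vM21 annotation (115973 of 117135 transcripts matched), rounded, and scaled by TMM. The deposited TPM values were used for the level of acinar genes and, with the effective lengths, to weight the gene lengths behind the length offsets. A gene was tested if 4 or more libraries held 10 or more counts of it, with edgeR 4.0.16 (quasi-likelihood, robust, 2-sided) at an adjusted p under 0.05, on the 8 KO female libraries. Differences between diet effects came from a model of all 32 libraries. No library was left out of the main fits. The members and gene lists were chosen with earlier results of these data known.

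Named were the called genes, the up to 4 members of each list with the smallest p, the liver genes of the study, the strongest calls without the acinar-rich libraries, the 4 most abundant acinar genes, and up to 4 calls each way of each difference. Bhlhe41, Ciart, Nfil3, Nr1d1, Per1, Per3, Tef, Hmgcs1, Prss1, Prss2 and the islet genes were chosen after their values were seen. Alternatives were DESeq2 1.42.0, other scalings, filters and models, a replicate block and leaving out libraries. The scripts were tested on simulated data, and promoters came from RefSeq tables of GRCm38.p6. Totals of 12012257 to 15825078 counts per library bound the precision of low genes. The main fits did not treat replicate numbers as pairs, and whether the numbers pair the livers could not be decided from 4 pairs. Some items are not reported here.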

Additional observations from a re-analysis of the deposited data

Results flagged for a closer look

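In each diet group of KO females 1 liver was flagged for a gene when its gap to the nearest of the other 3, over the group's range, was above Dixon's 95% value for 4 samples. That held for 35 of 344 gene and group pairs read, and 10 of the 35 were in CD 3. The rate of about 1 in 20 holds only for independent, normally distributed values of genes chosen without regard to them. The genes read included the most abundant acinar genes and genes called without the acinar-rich libraries, so the share in CD 3 was partly set by that choice. The count of flags therefore cannot be compared with chance.

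In CD 3, the library richest in acinar transcripts, Acta2 stood at 26.8 CPM against 2.05 to 5.62, Amy2a4 at 2759.6 against 0 to 112 and Cela1 at 312 against 6.22 to 20.8 in the other 3 CD livers. There Cela2a stood at 358 CPM against 0.461 to 16.5, Cpt1b at 10.7 against 6.00 to 6.53 and Ctrb1 at 295 against 0.0768 to 12.6. In the same liver Cyp7a1 stood at 584 CPM against 37.7 to 82.7, Des at 73.0 against 4.84 to 16.5 and Inhba at 64.8 against 15.4 to 23.0. In the same liver Tagln stood at 17.0 CPM against 4.38 to 5.21. In CD 1, the CD liver lowest for most cholesterol synthesis genes, Flvcr2 stood at 6.79 CPM against 4.39 to 4.69, G0s2 at 251 against 18.6 to 25.0 and Osbpl3 at 1.34 against 1.80 to 1.85 in the other 3 CD livers. There Pdk4 stood at 167 CPM against 46.3 to 63.1, S100a8 at 1.11 against 0.401 to 0.461 and Srebf2 at 45.0 against 63.5 to 64.6. In the same liver Ugt1a9 stood at 87.5 CPM against 49.9 to 53.6 and Zbtb16 at 48.0 against 25.2 to 28.8.

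In CD 4, Krt19 stood at 0.538 CPM against 1.42 to 1.56 in the other 3 CD livers. In WD 4, the WD liver least far in the direction of the change for most clock genes, Apoa4 stood at 691 CPM against 467 to 497, Cfd at 9.001 against 0 to 0.128 and Cry1 at 15.1 against 8.14 to 8.97 in the other 3 WD livers. There Ctrb1 stood at 0.587 CPM against 0 to 0.0780, Cyp2d9 at 21.1 against 15.2 to 15.6 and Fabp4 at 40.6 against 5.89 to 7.88. In the same liver Mup20 stood at 86.0 CPM against 41.6 to 45.0, Myom3 at 1.04 against 0.624 to 0.663 and Nr1h4 at 124 against 93.8 to 98.9. In the same liver Ppcs stood at 18.0015 CPM against 13.8 to 14.1. In WD 1, Acta2 stood at 6.28 CPM against 1.56 to 2.15 and Nudt7 at 63.5 against 25.6 to 29.3 in the other 3 WD livers. In WD 2, Ces1d stood at 823 CPM against 617 to 633 and Gpihbp1 at 26.1 against 15.4 to 16.1 in the other 3 WD livers. In WD 3, Acaa1b stood at 626 CPM against 834 to 849 and Cyp2g1 at 7.33 against 5.35 to 5.64 in the other 3 WD livers.

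The diet effect of 13 named genes differed between KO females and KO males by a test of the difference itself (edgeR, all 32 libraries, adjusted over 13539 genes). The log2 difference, females less males, was −9.83 for Cfd (adjusted p = 0.0244), −4.32 for Lrrc39 (adjusted p = 0.00430), −3.25 for Osbpl3 (adjusted p = 0.00406) and −2.30 for Abcc3 (adjusted p = 0.000343). It was also below 0 at −2.27 for Apoa4 (adjusted p = 0.0127), −1.85 for Fbf1 (adjusted p = 0.0127), −1.35 for Sulf2 (adjusted p = 0.00406) and −1.21 for Aldh3a2 (adjusted p = 0.0324). It was above 0 at 0.81 for Rassf3 (adjusted p = 0.00406), 0.96 for Apom (adjusted p = 0.0127), 1.02 for Clec2d (adjusted p = 0.0127), 2.11 for Hamp (adjusted p = 0.0397) and 2.80 for Adgrf1 (adjusted p = 0.0127). In the males themselves the change was 2.46 for Lrrc39, 9.12 for Cfd and −3.41 for Adgrf1, and in the females −1.88, −0.70 and −0.62. Cfd, a marker of adipocytes, was high in CD 3 and WD 4 of the KO females. The sizes for Cfd and Lrrc39 rest on levels near 0. In KO males Cfd ranged from 0 to 0.247 CPM on the CD and from 18.4 to 96.1 on the WD. Lrrc39 ranged from 0.165 to 0.455 and from 0.843 to 2.44 in KO males. In KO females Lrrc39 ranged from 0.395 to 2.95 on the CD and from 0.256 to 0.663 on the WD.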

How the results depend on the processing

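In KO females all 16 genes kept their direction in each of the 19 other fits, whereas genes near 0 turned sign in some, such as Abcc3, at −0.041 with all 8 livers and 0.03 without CD 3, neither called. The number called was 16 with RLE scaling, with edgeR and length offsets and with filterByExpr, 17 with a length trend and 15 without robust fitting. It was 44 without a filter (30 higher and 14 lower), 89 in the model of all 32 libraries (17 and 72), 233 with DESeq2 on gene sums (91 and 142), 195 with DESeq2 and length offsets (82 and 113) and 39 without CD 2 and CD 3 (13 and 26). Leaving out 1 library gave 1 to 52 genes (1 to 20 higher, 0 to 32 lower), with 1 without CD 4, WD 1 or WD 3, 4 without WD 2, 52 without CD 3 and 33 without WD 4. With 4 livers a group these counts rest on single mice, and the cause was not tested.

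With the replicate number as a block 14 genes were called, 8 higher and 6 lower, 7 of the 16 among them, 0 for KO less WT females and 26 for KO females less KO males. The deviations of same-numbered libraries correlated at −0.0876 to 0.0712, with a mean of 0.0225 beside −0.00713 for libraries of different numbers. Of the 4 CD libraries 2 correlated best with their own number. With 4 pairs these values cannot decide whether the numbers pair the livers.

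For KO less WT females edgeR called 0 genes, and DESeq2 called 5 on gene sums and 3 with length offsets, all 5 and all 3 lower. For KO females less KO males DESeq2 called 163 on gene sums (38 higher, 125 lower) and 131 with length offsets (25 and 106). Without acinar-rich libraries 83 were called (15 and 68), and edgeR with length offsets and the model of 16 libraries each had 17 lower among 22. Leaving out 1 library gave 18 to 58 (4 to 10 higher, 13 to 48 lower), with 18 without WD 3 and 58 without CD 3 of the KO females. The difference in summed acinar CPM, WD less CD, ran from −2367.1 to −90.6 with 1 library left out, the latter without CD 3. Genes at a few counts, such as Slc39a5 and Prss2, are limited by depth.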

Other observations

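Some genes that edgeR did not call in all 8 KO female livers were called without the acinar-rich CD 2 and CD 3, and 4 of them are given as values from 2 CD and 4 WD livers. Fbf1, a centriole gene, had a log2 fold change of −1.46 (adjusted p = 0.00458 from edgeR) and stood at 17.5, 8.51, 6.43 and 16.8 CPM in CD 1 to CD 4 and 6.02, 6.57, 6.55 and 5.74 in WD 1 to WD 4. Tgm1, a transglutaminase, had 1.08 (adjusted p = 0.0372) and stood at 6.16, 11.4, 20.0 and 7.68 and 14.9, 14.9, 15.4 and 13.4. Prok1, a secreted peptide, had 3.51 (adjusted p = 0.0429) and stood at 0.237, 0.963, 3.49 and 0.231 and 2.63, 1.57, 2.73 and 4.17. Myom3, a sarcomere gene, had −1.82 (adjusted p = 0.0447) and stood at 2.92, 4.34, 9.98 and 2.38 and 0.641, 0.663, 0.624 and 1.04. In the fit of all 8 livers their adjusted p was 0.299, 0.817, 0.715 and 0.0802 in that order.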
